A study of Mus musculus with 16 samples.

Results

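The BAF complexes of the mouse dentate gyrus were described through 10 of their subunit genes, Smarca2, Smarca4, Arid1a, Arid1b, Actl6a, Actl6b, Dpf1, Dpf2, Dpf3 and Ss18l1. The genes were chosen by name as subunits associated with neural progenitors or with neurons, and all 10 were found among the 24421 gene names of the deposited StringTie abundance tables. Levels are given as TPM, a measure corrected for transcript length and library size. The series holds 16 RNA-seq libraries, 4 in each of 4 groups, and each library was made from the pooled dentate gyri of 2 mice. The groups p16 WT CTL (libraries 1 to 4) and p16 WT RUN (libraries 9 to 12) came from wild-type mice, and p16 KO CTL (libraries 5 to 8) and p16 KO RUN (libraries 13 to 16) from mice homozygous for the p16Ink4a knockout. CTL mice were sedentary, and RUN mice had 12 days of voluntary wheel running. All mice were 1-year-old C57BL/6 males. The knockout is constitutive, removes p16Ink4a from every tissue and leaves p19Arf functional, and it was made in FVB mice and then backcrossed to C57BL/6. The p-values measure the spread between pooled libraries, since the individual mice were not sequenced separately.

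BAF complexes, the mammalian SWI/SNF remodellers, use ATP to slide or evict nucleosomes and so change which regulatory DNA is accessible. Each complex is put together from families of alternative subunits, and neural development is known for an exchange among them. Proliferating progenitors use Actl6a (BAF53a), Ss18 and Dpf2 or Phf10, and postmitotic neurons use Actl6b (BAF53b), Ss18l1 (CREST) and Dpf1 or Dpf3 (BAF45b and BAF45c) at the same positions.

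The dissections carried the transcripts their label calls for, with all 8 listed granule neuron markers at or above 1 TPM in every library of each group, and the summed granule marker level lay between 620 and 1538 TPM. All 10 listed markers of CA1, CA2 and CA3 pyramidal neurons were also at or above 1 TPM in every library. In such bulk tissue, fewer cells of a type and less RNA per cell cannot be told apart. Cdkn2a, the gene that encodes both p16Ink4a and p19Arf, lay between 0.0 and 0.586 TPM in the wild-type libraries and between 0.0 and 0.413 TPM in the knockout libraries, too low for its row to check the genotype labels. Libraries 2, 6 and 7 stood apart from the rest in nuclear-retained RNA. The summed level of a list of 8 nuclear transcripts lay between 479 and 977 TPM in those 3 sedentary libraries and between 1828 and 2533 TPM in the other 13. Library 7 also held 213 TPM of choroid plexus transcripts, against 17.5 to 63.0 TPM in all other libraries. The number of reads behind a value is unknown because the tables hold no counts.

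After running, knockout mice had 1.34-fold more Dpf3 transcript and 1.19-fold and 1.13-fold more Arid1a and Arid1b transcript than sedentary knockout mice, at an unadjusted limma p under 0.05. The Arid1b difference no longer passed without libraries 2, 6 and 7. That fit kept only libraries 5 and 8 of p16 KO CTL, and the share of all genes passing fell from 18.5% to 8.49%. Dpf3 was also higher in running knockout mice than in running wild-type mice, by 1.19-fold. In wild-type mice Smarca2 was lower and Dpf2 higher after running at the same threshold. The running effects of Smarca2, Dpf2, Arid1a and Arid1b were not shown to differ between genotypes, since each 95% confidence interval of the interaction included 0. Neither Actl6a nor Actl6b passed it in any comparison. No difference of a subunit passed an adjusted p of 0.05 (Benjamini-Hochberg over the 17317 genes tested), so each named difference rests on the unadjusted threshold.

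The counts were read against all tested genes. In Set A, p16 KO RUN against p16 KO CTL, 3 of 10 subunits had an unadjusted p under 0.05, all higher, against 18.5% of all genes. For the sedentary genotypes, knockout against wild type (Set B), the count was 0 of 10 against 6.69%. In Set C, p16 WT RUN against p16 WT CTL, it was 2 of 10 against 4.81%, 1 higher and 1 lower. In Set D, p16 KO RUN against p16 WT CTL, it was 4 of 10 against 8.63%, 3 higher and 1 lower. In Set E, p16 KO RUN against p16 WT RUN, it was 1 of 10 against 3.87%. The interaction, the running effect in knockout minus that in wild-type mice, gave 1 of 10 against 5.48%. The running effect averaged over genotypes gave 4 of 10 against 17.9%, and the genotype effect averaged over activity 0 of 10 against 7.12%. With so few genes, a count of 0 to 4 describes these subunits and does not set them apart from the remaining genes. Marker sums of other cell types also moved between the groups of Set A. The 8 oligodendrocyte markers summed to 1526 to 2534 TPM in p16 KO CTL (mean 1993) and to 1200 to 1549 TPM in p16 KO RUN (mean 1355), and the 7 neural stem cell markers to 236 to 362 TPM (mean 296) and 188 to 266 TPM (mean 212). The 8 granule neuron markers summed to 620 to 1201 TPM (mean 976) in the sedentary and to 1035 to 1538 TPM (mean 1212) in the running knockout libraries. The 5 endothelial markers summed to 61.1 to 122 TPM (mean 91.0) in the sedentary and to 105 to 155 TPM (mean 126) in the running ones. All markers of these 4 lists were at or above 1 TPM in every library. The 6 choroid plexus markers had means of 80.6 and 41.4 TPM, with library 7 at 213 TPM, and the 7 microglial markers of 490 and 413 TPM. In Set E, the 8 neuroblast markers, of which 5 in each group were at or above 1 TPM in all its libraries, summed to 186 to 261 TPM (mean 236) in p16 WT RUN and to 240 to 378 TPM (mean 300.4) in p16 KO RUN, and the 5 mossy cell markers to 237 to 292 TPM (mean 257) and 256 to 355 TPM (mean 308). In Set C the neuroblast sum was 235 to 309 TPM (mean 271) in p16 WT CTL against the 186 to 261 TPM of p16 WT RUN, and the mossy cell sum 252 to 312 TPM (mean 284) against 237 to 292 TPM. In Set D the 5 oligodendrocyte precursor markers summed to 152 to 182 TPM (mean 163) in p16 WT CTL and to 174 to 223 TPM (mean 193) in p16 KO RUN, and the endothelial mean was 111 against 126 TPM. The neuroblast and mossy cell lists share the gene Calb2, so their sums are not separate observations. The part of these cell types in the results of Sets A, C, D and E was not tested.

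At an adjusted p under 0.05 the count of subunits was 0 of 10 in every comparison, while 0.0173% of all genes passed in Set A, 0.00577% in Set E, 0.751% for the averaged running effect and 0.0% in the other comparisons. The smallest adjusted p of a subunit was 0.0779, for Arid1a in the averaged running effect by limma. Groups that did not overlap in TPM, before scaling between libraries, were counted as well. Dpf3 did not overlap in Set A, where 10.0% of all genes did not, nor in Set E, where the share was 2.49%. Arid1a and Arid1b did not overlap in Set C, where the share was 3.34%. No subunit was free of overlap in Set B (2.81% of genes) or Set D (5.56%). On the scaled log2 level the subunits free of overlap were Smarca4, Arid1a, Arid1b and Dpf3 in Set A (10.4% of genes), none in Set B (2.7%), Arid1a in Set C (3.34%), Smarca2 and Arid1b in Set D (5.68%) and Dpf3 in Set E (2.46%). The sets share libraries, Sets A and B the p16 KO CTL group and Sets B, C and D the p16 WT CTL group. Sets A, D and E share the p16 KO RUN group, and Sets C and E the p16 WT RUN group. The values of the sets are therefore not independent.

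**Figure D1:**
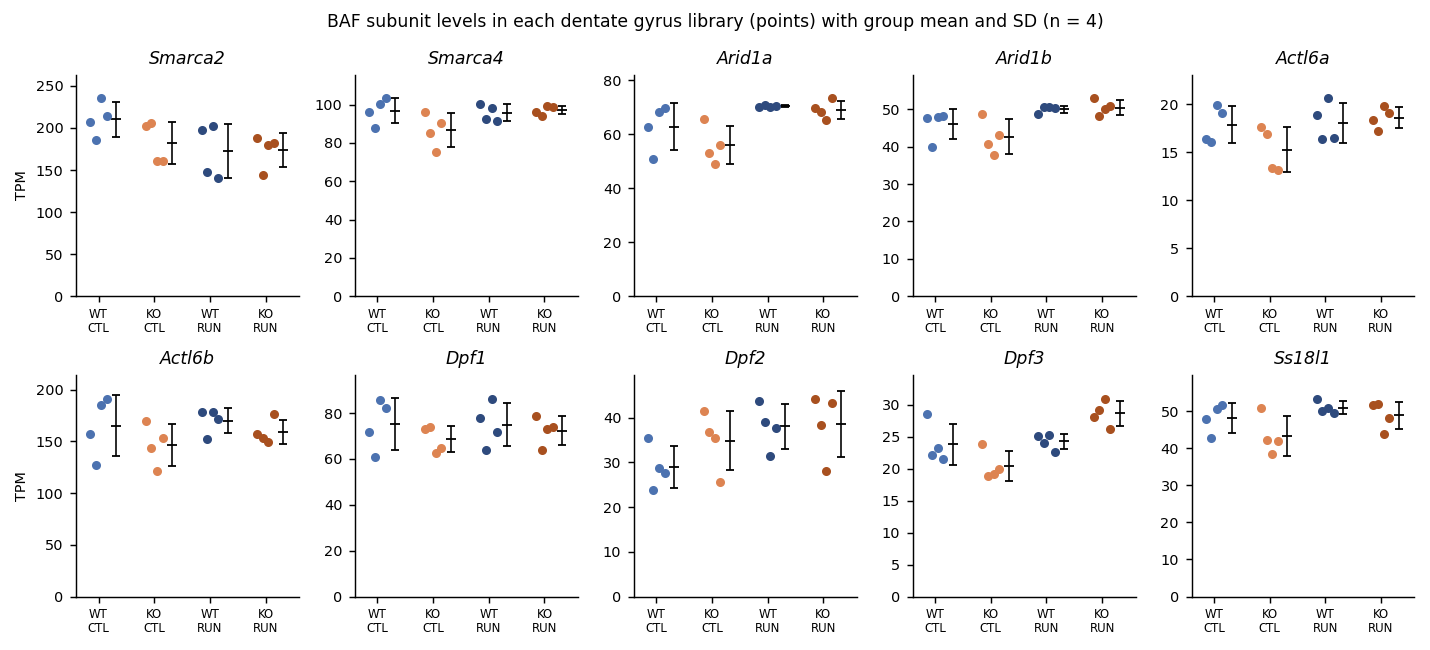
TPM of each of the 10 subunits in every library, with the groups on the horizontal axis and the vertical axis from 0 (points are libraries, bars are the group mean and SD, n = 4). The Dpf3 points of p16 KO RUN, from 26.3 to 31.0 TPM, all lie above those of p16 KO CTL and p16 WT RUN, and the 4 Arid1a points of p16 WT RUN fall within 70.2 to 70.8 TPM.

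**Figure D2:**
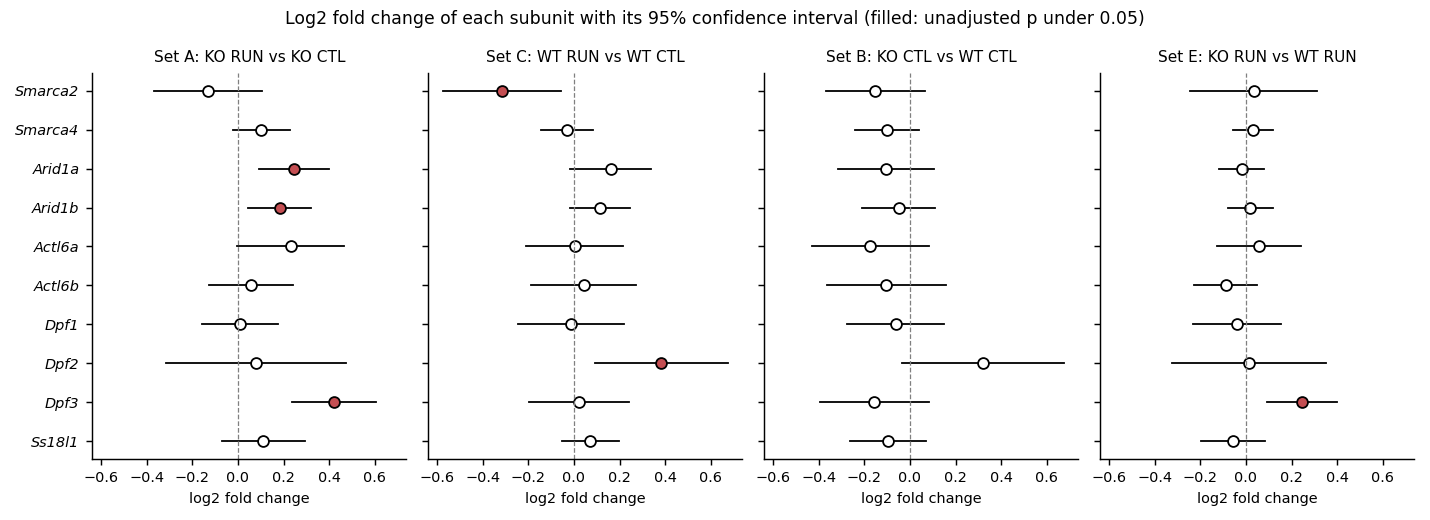
Log2 fold change of each subunit (points) with its 95% confidence interval (lines) in Sets A, C, B and E, filled where the unadjusted limma p is under 0.05. Dpf3, Arid1a and Arid1b are filled on the positive side in Set A, Smarca2 and Dpf2 lie on opposite sides in Set C, and no point is filled in Set B.

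Smarca2 (BRM) and Smarca4 (BRG1) are the alternative ATPases, of which each complex holds a single copy. Smarca2 lies at chr19:26605160-26778321 on the plus strand and Smarca4 at chr9:21616169-21704230 on the plus strand (mm10). Smarca2 had the highest mean TPM of the 10, 185 over 16 libraries, and was the highest in 13 of them. By coverage per base, which does not weight short transcripts more, Actl6b exceeded it in all 16 libraries. Its level was 207, 185, 235 and 214 TPM in p16 WT CTL and 202, 206, 160 and 161 TPM in p16 KO CTL. After running it was 198, 148, 202 and 141 TPM in p16 WT RUN and 188, 144, 180 and 182 TPM in p16 KO RUN. Libraries 10, 12 and 14, all from running mice, were the 3 lowest, and the groups overlapped in TPM in every set.

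The log2 fold change of Smarca2 in Set C was -0.32 (SE 0.12, limma adjusted p = 0.985). In Set D it was -0.28 (SE 0.08, limma adjusted p = 0.374), and in TPM 3 of the 4 p16 KO RUN libraries lay below all p16 WT CTL libraries. The averaged running effect was -0.22 (SE 0.08, limma adjusted p = 0.188). In Set A, within knockout mice, it was -0.13 with a 95% confidence interval from -0.37 to 0.11, and the running effects of the genotypes were not shown to differ (interaction 0.18, interval -0.17 to 0.54). The Set C difference lost its call without library 3 (-0.27), library 10 (-0.26) or library 12 (-0.23). In Set B it was -0.15 (95% confidence interval -0.37 to 0.07), and it passed the unadjusted threshold without library 6 (-0.22).

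Smarca4 stood at 94.1 TPM on average and varied less than any other subunit, with a within-group SD of 0.06 on the log2 scale. The median of that SD was 0.13 over the 10094 genes whose mean reached 10 TPM. Its values ran from 87.7 to 103 TPM in p16 WT CTL, from 75.5 to 95.9 TPM in p16 KO CTL, from 91.4 to 100.5 TPM in p16 WT RUN and from 94.3 to 99.3 TPM in p16 KO RUN. Its largest log2 fold change among Sets A to E was 0.10, in Set A (SE 0.06, limma adjusted p = 0.337). The interaction for Smarca4 was 0.13 (95% confidence interval -0.02 to 0.28), and it passed the unadjusted threshold without library 2 (0.16) or library 5 (0.16).

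Arid1a (BAF250a) and Arid1b (BAF250b) are the alternative large DNA-binding subunits that define the canonical BAF complex. Arid1a lies at chr4:133679008-133753611 on the minus strand, on the chromosome that also carries the knocked-out locus, and Arid1b at chr17:4995074-5347656 on the plus strand (mm10). Arid1a stood at 62.8, 50.8, 68.5 and 69.7 TPM in p16 WT CTL and at 65.6, 53.1, 49.0 and 56.2 TPM in p16 KO CTL. It stood at 70.2, 70.8, 70.2 and 70.6 TPM in p16 WT RUN and at 69.6, 68.4, 65.4 and 73.4 TPM in p16 KO RUN. The running libraries were high and close together, and the low values came from sedentary libraries, with libraries 2, 6 and 7 among them.

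Arid1b showed the same pattern of lower values in sedentary libraries. It was 47.7, 39.9, 48.0 and 48.2 TPM in p16 WT CTL and 48.7, 40.8, 37.8 and 43.3 TPM in p16 KO CTL. It was 48.7, 50.6, 50.7 and 50.2 TPM in p16 WT RUN and 53.0, 48.2, 49.97 and 50.8 TPM in p16 KO RUN. In TPM all p16 WT RUN libraries exceeded all p16 WT CTL libraries, by less than 1 TPM at the closest, for Arid1a as for Arid1b. On the scaled log2 level this held for Arid1a but not for Arid1b.

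In Set A the log2 fold change was 0.25 for Arid1a (SE 0.07, limma adjusted p = 0.170). For Arid1b it was 0.18 (SE 0.06, limma adjusted p = 0.211). In TPM, 3 of the 4 p16 KO RUN libraries lay above all p16 KO CTL libraries for either gene. On the scaled log2 level all 4 did, and on that level the two-sided exact permutation p was 0.0286, the smallest that 4 against 4 libraries allow. The averaged running effect was 0.20 for Arid1a (SE 0.05, limma adjusted p = 0.0779) and 0.15 for Arid1b (SE 0.04, limma adjusted p = 0.0918).

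These results were recomputed without libraries 2, 6 and 7, the libraries low in nuclear RNA. Whether the low nuclear RNA had a part in them was not tested. Without the 3 libraries, a choice made after seeing the data, the Set A value of Arid1a was 0.17 and that of Arid1b was 0.12, which no longer passed. In Set A this left libraries 5 and 8 as the sedentary knockout group, and 8.49% of all genes passed. The averaged running effects without the 3 libraries were 0.13 for Arid1a and 0.09 for Arid1b.

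In wild-type mice the log2 fold changes after running were 0.16 for Arid1a (95% confidence interval -0.02 to 0.34) and 0.11 for Arid1b (-0.02 to 0.25). Arid1a passed the unadjusted threshold in Set C without library 3 (0.19) or library 4 (0.20), and without library 2 in Set B (-0.18) and for the averaged genotype effect (-0.10). Arid1b in Set D was 0.13 (SE 0.06, limma adjusted p = 0.544). That call was lost without library 2 (0.09), 13 (0.12), 14 (0.15), 15 (0.14) or 16 (0.14). The running effects did not differ detectably between genotypes, with interactions of 0.09 (95% confidence interval -0.14 to 0.31) for Arid1a and 0.07 (-0.10 to 0.24) for Arid1b.

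Actl6a and Actl6b encode the actin-related subunits that are exchanged when progenitors become neurons. Actl6a lies at chr3:32708546-32726971 on the plus strand, with its 3′ end overlapping Mrpl47 on the other strand, and Actl6b at chr5:137553555-137569573 on the plus strand (mm10). Their promoters, 300 bases around the transcript start in RefSeq (GRCm38.p6), are shown because the pair differs in TPM more than any other pair of alternatives. Capitals mark each GC box (GGGCGG) and CCAAT box (CCAAT) on either strand, and neighbouring GC boxes may overlap. The windows are chr3:32708296-32708595 and chr5:137553296-137553595, both on the plus strand.
Actl6a: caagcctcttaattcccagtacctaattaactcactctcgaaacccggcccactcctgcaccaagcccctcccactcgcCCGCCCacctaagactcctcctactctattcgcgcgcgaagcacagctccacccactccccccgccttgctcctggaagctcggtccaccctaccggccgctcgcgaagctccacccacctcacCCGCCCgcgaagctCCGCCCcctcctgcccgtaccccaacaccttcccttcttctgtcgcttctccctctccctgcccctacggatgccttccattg
Actl6b: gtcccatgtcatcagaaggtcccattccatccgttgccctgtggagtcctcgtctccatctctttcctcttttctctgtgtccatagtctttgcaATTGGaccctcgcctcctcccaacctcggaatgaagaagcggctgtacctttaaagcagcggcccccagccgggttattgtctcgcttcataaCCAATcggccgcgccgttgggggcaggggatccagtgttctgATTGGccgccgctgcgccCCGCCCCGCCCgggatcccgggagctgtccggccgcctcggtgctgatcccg
The Actl6a window held 3 GC boxes and no CCAAT box, and the Actl6b window held 2 GC boxes and 3 CCAAT boxes. Among all 32851 promoter windows of that length, 35.7% held a GC box and 37.4% a CCAAT box.

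Actl6a, the progenitor form, had the lowest TPM of the 10 subunits in all 16 libraries, while by coverage per base Dpf3 was the lowest in all 16. Its level was 16.4, 16.0, 19.9 and 19.1 TPM in p16 WT CTL and 17.6, 16.9, 13.3 and 13.2 TPM in p16 KO CTL. It was 18.8, 16.4, 20.6 and 16.5 TPM in p16 WT RUN and 18.4, 17.3, 19.8 and 19.1 TPM in p16 KO RUN. Libraries 7 and 8, both p16 KO CTL, were the lowest of the 16, and the groups overlapped in every set. Actl6b, the neuronal form, stood at 158, 128, 185 and 191 TPM in p16 WT CTL and at 169, 144, 121 and 153 TPM in p16 KO CTL. It stood at 178, 152, 178 and 172 TPM in p16 WT RUN and at 157, 153, 150 and 176 TPM in p16 KO RUN, and again all sets overlapped. Library 7 was the lowest and library 2 the next lowest for Actl6b.

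For Actl6a the log2 fold change in Set A was 0.23 (SE 0.10, limma adjusted p = 0.274), just outside the unadjusted threshold. It passed without library 5 (0.28) or library 6 (0.29). Its log2 fold changes in Sets B, C, D and E were -0.17 (95% confidence interval -0.43 to 0.08), 0.00 (-0.21 to 0.22), 0.06 (-0.12 to 0.23) and 0.06 (-0.13 to 0.24). The Actl6a interaction was 0.23 (-0.07 to 0.53), the averaged running effect 0.12 (-0.03 to 0.27) and the averaged genotype effect -0.06 (-0.21 to 0.09). Only the averaged running effect among these crossed the threshold when a library was dropped, without library 6 (0.15).

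The log2 fold changes of Actl6b were 0.06 in Set A (95% confidence interval -0.13 to 0.24), -0.10 in Set B (-0.37 to 0.16), 0.04 in Set C (-0.19 to 0.27), -0.05 in Set D (-0.28 to 0.19) and -0.09 in Set E (-0.23 to 0.05). Its interaction was 0.01 (-0.28 to 0.30), its averaged running effect 0.05 (-0.09 to 0.20) and its averaged genotype effect -0.10 (-0.24 to 0.05). Actl6b passed the unadjusted threshold in Set E without library 10 (-0.13) or library 16 (-0.13), and for the genotype effect without library 2 (-0.14).

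Dpf1, Dpf2 and Dpf3 belong to the BAF45 family, whose paired PHD fingers read acetylated and methylated histone tails. Dpf1 lies at chr7:29304005-29317586 on the plus strand, Dpf2 at chr19:5896516-5912871 on the minus strand and Dpf3 at chr12:83213751-83487736 on the minus strand (mm10). The Dpf3 promoter window in RefSeq, chr12:83487687-83487986 on the minus strand (GRCm38.p6), is shown because Dpf3 had the largest log2 fold change among the subunits in Set A. Capitals mark the same motifs.
Dpf3: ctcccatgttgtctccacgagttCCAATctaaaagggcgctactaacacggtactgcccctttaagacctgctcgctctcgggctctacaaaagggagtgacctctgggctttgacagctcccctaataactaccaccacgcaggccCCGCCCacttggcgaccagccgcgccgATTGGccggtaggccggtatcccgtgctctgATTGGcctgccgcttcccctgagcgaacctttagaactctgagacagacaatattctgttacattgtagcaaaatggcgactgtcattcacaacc
It held 1 GC box and 3 CCAAT boxes. Over all 10 subunits, 9 windows held a GC box and 4 a CCAAT box. None of the 10 held a cAMP response element (TGACGTCA, in 1.79% of all windows), an E2F motif (TTTNGCGC, 1.38%), a TATA box (TATAAA, 13.6%) or a canonical E-box (CACGTG, 7.15%) on either strand. The Dpf3 window had 17 CpG dinucleotides, the fewest among the subunits, whose windows held up to 42, against a median of 7 over all windows.

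Dpf3 stood at 28.5, 22.1, 23.3 and 21.5 TPM in p16 WT CTL and at 23.9, 18.9, 19.2 and 19.9 TPM in p16 KO CTL. It stood at 25.1, 24.1, 25.4 and 22.6 TPM in p16 WT RUN and at 28.2, 29.2, 31.0 and 26.3 TPM in p16 KO RUN. The running knockout libraries were the highest group, and only library 1, a sedentary wild-type library, reached their range. The group means were 23.8 ± 3.20, 20.5 ± 2.33, 24.3 ± 1.22 and 28.7 ± 1.97 TPM in the order of the library numbers (SD, n = 4).

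In Set A the log2 fold change of Dpf3 was 0.42 (SE 0.08, 95% confidence interval 0.24 to 0.61, limma adjusted p = 0.114), with all 4 running libraries above all 4 sedentary ones. In Set E it was 0.25 (SE 0.07, 95% confidence interval 0.09 to 0.40, limma adjusted p = 1.0), again with no overlap. For Sets A and E alike the two-sided exact permutation p was 0.0286, the smallest possible. Both sets rest on the same 4 p16 KO RUN libraries, so they are not separate support. In wild-type mice, Set C, the change after running was 0.02 (95% confidence interval -0.20 to 0.24). The difference between the running effects, 0.40 on the log2 scale, was tested directly (SE 0.13, 95% confidence interval 0.13 to 0.67, limma adjusted p = 0.797). Between sedentary groups, Set B, the value was -0.16 (95% confidence interval -0.40 to 0.08), and the averaged genotype effect was 0.04 (-0.09 to 0.18).

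The averaged running effect of Dpf3 was 0.22 (SE 0.06, limma adjusted p = 0.108), and its Set D value was 0.27 (SE 0.10, limma adjusted p = 0.503). The Set A, Set E and interaction values kept an unadjusted p under 0.05 with any single library left out, with ranges of 0.38 to 0.47, 0.21 to 0.29 and 0.31 to 0.46. Without libraries 2, 6 and 7 they were 0.37 in Set A and 0.36 for the interaction. Set D did not hold, since its call was lost without library 2 (0.26), 3 (0.25), 4 (0.21), 14 (0.25) or 15 (0.23). Dpf3 is among the genes that the study selected on these same samples for a difference in Sets A and E and for an interaction of genotype and running, so these calls are not independent evidence of the direction.

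The TPM of Dpf3 sums transcripts of unlike length. GENCODE M21 lists 7 protein-coding Dpf3 transcripts of 587 to 3135 bases, some ending in the middle of the gene. Whether StringTie was run with this list is not known. Coverage divided by FPKM was taken relative to the most common such ratio among the gene entries of the same library. It was 0.30 to 0.36 for Dpf3 in the 16 libraries, 0.63 in all libraries for Smarca2, and 0.995 to 1.0 for the other 8 subunits. The highest Dpf3 value, 0.36, was in library 3 of p16 WT CTL. Because TPM weights short transcripts more, the differences were recomputed from coverage per base, also chosen after seeing the data. The log2 fold change of Dpf3 was then 0.44 in Set A and 0.47 for the interaction.

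Dpf2, the ubiquitous member of the family, was the most variable subunit between libraries of the same group, with a within-group SD of 0.25 on the log2 scale. Its level was 35.4, 23.9, 28.9 and 27.7 TPM in p16 WT CTL and 41.4, 36.9, 35.4 and 25.7 TPM in p16 KO CTL. It was 43.8, 39.1, 31.5 and 37.8 TPM in p16 WT RUN and 44.3, 38.4, 28.1 and 43.3 TPM in p16 KO RUN. Low values occurred in every group, at libraries 2, 3 and 4, 8, 11 and 15, and no set was free of overlap.

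The log2 fold change of Dpf2 in Set C was 0.38 (SE 0.13, limma adjusted p = 0.985), and it stayed past the unadjusted threshold with each of the 8 libraries left out. In Set D it was 0.40 (SE 0.16, limma adjusted p = 0.520), and that call was lost without library 2 (0.33), 3 (0.39), 4 (0.37), 13 (0.33), 14 (0.38) or 16 (0.34). In Set B it was 0.32 (95% confidence interval -0.04 to 0.67), and it passed without library 1 (0.42) or library 8 (0.46). In Set A it was 0.08 (95% confidence interval -0.32 to 0.47), and the interaction was -0.31 (-0.80 to 0.19), which passed without library 8 (-0.45). The averaged running effect was 0.23 (-0.02 to 0.48) and passed without library 1 (0.28), 5 (0.26), 11 (0.28) or 15 (0.30), and the averaged genotype effect was 0.17 (-0.08 to 0.41) and passed without library 8 (0.24) or 15 (0.24).

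Dpf1, the neuronal member, ran from 61.0 to 86.3 TPM over the 16 libraries with a mean of 72.8 TPM. All of its log2 fold changes in Sets A to E lay between -0.06 and 0.01, and the widest 95% confidence interval among them ran from -0.25 to 0.22, in Set C.

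Ss18l1, at chr2:180042483-180070201 on the plus strand (mm10), encodes CREST, the neuronal alternative to Ss18 and a calcium-responsive coactivator needed for dendrite growth. It ran from 42.8 to 51.7 TPM in p16 WT CTL, from 38.4 to 51.0 TPM in p16 KO CTL, from 49.6 to 53.4 TPM in p16 WT RUN and from 44.0 to 51.9 TPM in p16 KO RUN. Its log2 fold change was 0.11 in Set A (95% confidence interval -0.07 to 0.29) and 0.07 in Set C (-0.05 to 0.20). The averaged running effect of Ss18l1 was 0.09 (limma adjusted p = 0.324), and it passed the unadjusted threshold without library 5 (0.12) or library 15 (0.12). Its averaged genotype effect was -0.08 (95% confidence interval -0.18 to 0.03), and it passed without library 5 (-0.10).

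By mean TPM over the 16 libraries, a scale per length on which Dpf3 and Smarca2 stand higher than by coverage per base, the order was Smarca2 (185), Actl6b (160), Smarca4 (94.1), Dpf1 (72.8), Arid1a (64.6), Ss18l1 (47.9), Arid1b (47.3), Dpf2 (35.1), Dpf3 (24.3) and Actl6a (17.5). The ranges of neighbours in this order overlapped throughout, apart from Actl6b and Smarca4, whose ranges of 121 to 191.5 TPM and 75.5 to 103 TPM were separate. Within each library the alternatives could be compared directly, and these ratios are descriptions with no test. Actl6b exceeded Actl6a in all 16 libraries, by 7.56-fold to 11.6-fold. The group means of that ratio were 9.21 ± 0.89 and 9.70 ± 1.36 in sedentary wild-type and knockout mice and 9.46 ± 0.74 and 8.55 ± 0.72 in the running ones (SD, n = 4), and all groups overlapped.

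The Smarca2/Smarca4 ratio was 2.17 ± 0.12 and 2.11 ± 0.26 in sedentary wild-type and knockout mice, and 1.79 ± 0.26 and 1.79 ± 0.18 in the running ones (SD, n = 4). In p16 WT RUN every library lay below every p16 WT CTL library, with 1.54 to 2.05 against 2.07 to 2.35. As a ratio of coverage per base it was smaller, 0.96 to 1.52 over the 16 libraries, and it was below 1 in 2 of them, so that Smarca2 exceeded Smarca4 in every library by TPM but not by coverage. Arid1b/Arid1a stayed within 0.69 to 0.79 in all libraries, the narrowest spread of the ratios. Dpf1/Dpf2 ran from 1.64 to 2.98 and Dpf3/Dpf2 from 0.51 to 1.10. The Dpf3/Dpf2 ratio of coverage per base was 0.15 to 0.35, below 1 in all 16 libraries. Ss18l1/Ss18 lay near 1, with group means of 1.01 ± 0.14, 1.04 ± 0.14, 0.92 ± 0.06 and 0.85 ± 0.14 in the order of the library numbers (SD, n = 4).

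**Figure D3:**
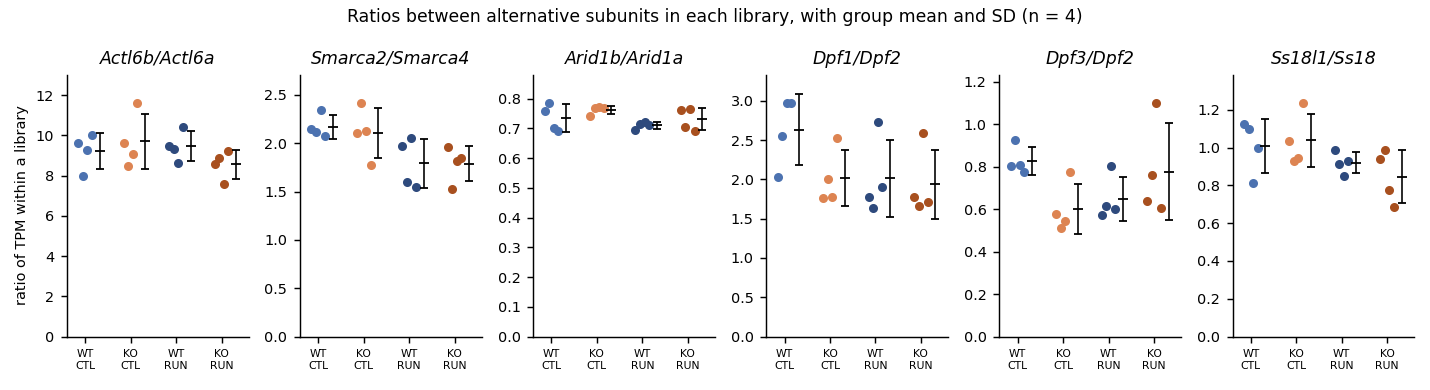
Ratio of the TPM of alternative subunits within each library by group, on axes from 0 (points are libraries, bars are the group mean and SD, n = 4). Actl6b/Actl6a lies between 7.56 and 11.6 with all groups overlapping, and the Smarca2/Smarca4 points of p16 WT RUN lie below those of p16 WT CTL.

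On the scaled log2 level, library 2 was the lowest of p16 WT CTL for 8 of the 10 subunits, all but Actl6a and Dpf3, beside 36.5% of all tested genes. Libraries 6 and 7 were the lowest pair of p16 KO CTL for 4 of 10, namely Smarca4, Arid1a, Arid1b and Actl6b, beside 28.4%. In TPM before scaling these counts were 9 (46.6% of genes) and 5 (38.7%). On the scaled level the mean of the 3 libraries was below that of the other 5 sedentary libraries for 9 subunits, beside 52.9% of all tested genes. The largest such difference was -0.29, for Actl6b, followed by -0.23 for Arid1a, and Dpf2 was the exception at 0.11. Whether the low nuclear RNA of these libraries set the levels was not tested.

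**Figure D4:**
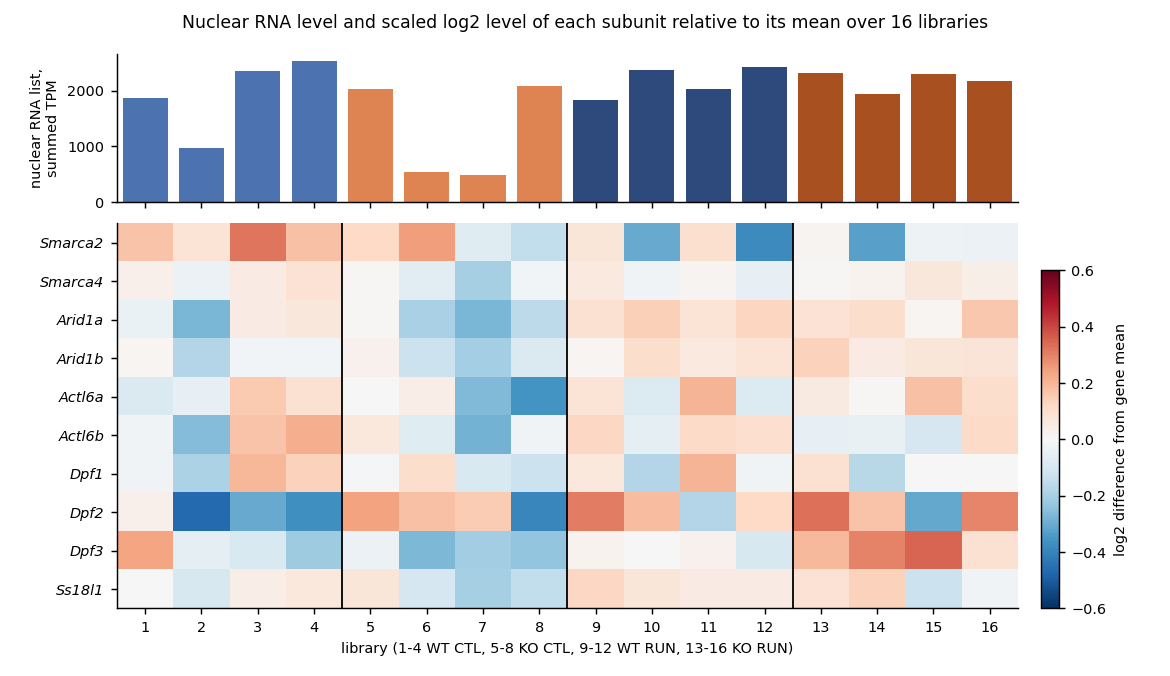
Upper panel, summed TPM of 8 nuclear-retained transcripts in each library, as bars from 0. Lower panel, scaled log2 level of each subunit in each library as a difference from its mean over 16 libraries (colour), with vertical lines between groups. Libraries 2, 6 and 7 have short bars, from 479 to 977 TPM, and blue cells for Arid1a, Arid1b and Actl6b.

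**Figure D5:**
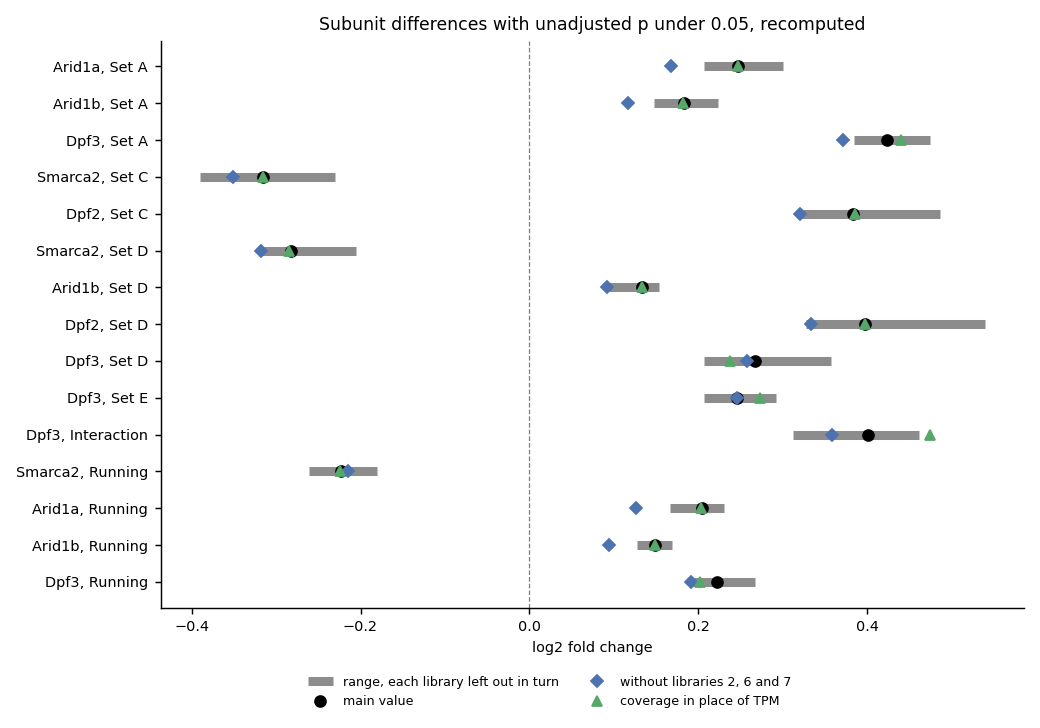
Log2 fold changes with an unadjusted limma p under 0.05, as main values (circles), with each library left out in turn (grey bars, lowest to highest), without libraries 2, 6 and 7 (diamonds) and from coverage per base (triangles). All values keep their sign. The diamonds for Dpf3, Arid1a and Arid1b in Set A, at 0.37, 0.17 and 0.12, lie below their grey bars. So do those for Arid1a and Arid1b in the averaged running effect, at 0.13 and 0.09, and that for Dpf3 there, 0.192, lies at the lower end of its bar.

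The rest of the SWI/SNF family was followed through 21 further subunits, all of which were tested. In Set A, 8 of the 21 passed the unadjusted threshold, 5 higher and 3 lower, beside 18.5% of all genes, and 0 passed the adjusted one. Ss18, the progenitor alternative to Ss18l1, was 58.7 ± 7.93 TPM in p16 KO RUN against 42.2 ± 6.56 TPM in p16 KO CTL (SD, n = 4), a log2 fold change of 0.41 (SE 0.12, limma adjusted p = 0.185). The other higher subunits were Gltscr1l (0.36), a subunit of the non-canonical complex, Smarcd2 (0.31), a BAF60 scaffold subunit, and Arid2 (0.22) and Brd7 (0.15), which belong to the PBAF form. The lower ones were Bcl7c, at -0.33 (SE 0.08, limma adjusted p = 0.151), Smarcd3 (-0.20) and Bcl7b (-0.17). The log2 fold changes therefore pointed both ways within the family.

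In Set E, 1 of the 21 passed, Brd7, with 58.9 ± 3.44 TPM in p16 KO RUN against 54.0 ± 1.79 TPM in p16 WT RUN (SD, n = 4). Its log2 fold change was 0.13 (SE 0.05, limma adjusted p = 1.0). Brd7 was also the single gene of the 21 to pass for the interaction, at 0.20 (SE 0.08, limma adjusted p = 0.797). The counts of 1 stood beside 3.87% of all genes in Set E and 5.48% for the interaction. They were 0 of 21 in Set B (6.69% of all genes) and Set C (4.81%), 2 in Set D (8.63%), 5 for the averaged running effect (17.9%) and 0 for the averaged genotype effect (7.12%).

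The median log2 fold change in Set A was 0.11 for the 10 subunits, 0.07 for the 21 further subunits and 0.14 for 33 subunits of other ATP-dependent remodellers, against 0.02 for all tested genes. In Set B the medians were -0.10, -0.05 and -0.12, against -0.01. In Set C they were 0.03, 0.03 and 0.01, against 0.00. Of the other remodellers, 8 of 33 passed the unadjusted threshold in the main fit of Set A, 7 of them higher, beside 18.5% of all genes. The medians of the 3 lists were positive in Sets A and C and negative in Set B, and Sets A and B share the p16 KO CTL libraries.

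The genes most like each subunit were ranked by Pearson's r of the scaled log2 level over the 16 libraries, among 14438 genes whose mean reached 1 TPM. These are descriptions over libraries that share groups and the low nuclear RNA of 3 of them. Over the 13 libraries without 2, 6 and 7, the r of the genes named ran from 0.73 (Smarca4 with Mir7115) to 0.96 (Smarca2 with Igfbp5). For Dpf3 they were Gramd1b (r = 0.80), Egr3 (0.80), an activity-induced transcription factor, and Mir7000 (0.80), and the leading r was lower than that of any other subunit. Mir7000 had a mean of only 1.345 TPM. For Dpf2 they were Hs2st1 (0.83), Dcaf5 (0.83) and Nmt1 (0.79). Smarca2 was closest to Dcaf6 (0.95), Igfbp5 (0.95) and Prr16 (0.93). Genes close to Arid1a included Ntrk3 (0.98) and Plxna4 (0.97), and genes close to Arid1b included Epha10 (0.95) and Ubr4 (0.94).

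The nearest genes to Actl6a were Prdm2 (0.90), Rhobtb2 (0.89) and Ankrd6 (0.88), and those to Actl6b were Phf21a (0.94), Dguok (0.93) and Celf3 (0.93). Smarca4 was nearest to Cfap44 (0.94), Cpsf4l (0.94) and Mir7115 (0.94), Dpf1 to St8sia4 (0.94), Rps6ka2 (0.89) and Eftud2 (0.89), and Ss18l1 to Arhgap20os (0.87), Fam135a (0.86) and Wrn (0.86). Some of these genes had low means, among them Arhgap20os (1.05 TPM), Cpsf4l (2.33 TPM) and Cfap44 (3.53 TPM). Among the subunits themselves the highest r over 16 libraries was 0.92, between Arid1a and Arid1b, and it was 0.73 over the 13 libraries, where the highest was 0.77, between Smarca2 and Dpf1. That between Arid1a and Actl6b was 0.72 over 16 and 0.25 over 13 libraries, and the lowest over 16, between Smarca2 and Arid1b, was -0.32 and -0.37 over 13. The lowest over 13 was -0.63, between Actl6b and Dpf3, which was -0.05 over 16.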

How the data were processed

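Dentate gyrus RNA of 16 libraries was sequenced by the authors, who per the labels used bcl2fastq 2.20, cutadapt 1.11, STAR and StringTie on mm10 (other versions are not given in the sources used here). The deposited StringTie tables give TPM, FPKM and coverage signal per gene entry. They hold no read counts, so depth and counting error are unknown. Values were processed in R 4.3.3 with limma 3.58.1 and in Python 3.11.15. TPM of entries with the same gene name was summed. Each library was then scaled by its median ratio to the average of the libraries, taken from the 13226 genes that reached 1 TPM everywhere. Log2(TPM + 0.1) of the 17317 genes whose mean reached 0.1 TPM was fitted by limma with a mean-variance trend, using the 8 libraries of each pairwise set and all 16 libraries for the interaction and averaged effects. Fold changes are therefore on the log2(TPM + 0.1) scale. P-values were adjusted by the Benjamini-Hochberg method over all tested genes, and a difference was named at an unadjusted p under 0.05. The fits were also run on simulated data, as a check of the code. Genes were drawn independently there, with no effect shared within a library, so that run does not assess the calls given here. Exact permutation tests were two-sided over the 35 splits of 8 libraries.

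The subunits and the comparison lists were chosen with earlier results of these data known. All 10 subunits were named, with fold changes given for each with an unadjusted p under 0.05, and for Dpf3, Actl6a and Actl6b in every comparison. Of the 21 further subunits, those with an unadjusted p under 0.05 in Set A, Set E or the interaction were named, and for each subunit the 3 genes of highest Pearson's r, of which 1 each for Arid1a and Arid1b is not reported here. Replicate numbers run from 1 to 16 and pair no libraries across groups. Alternatives were other filters, pseudocounts, normalizations, FPKM, no trend, the highest entry per name, a joint fit and each library left out. Coverage (also for the ratios), leaving out libraries 2, 6 and 7, and a nuclear RNA covariate were added after seeing the data.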

Additional observations from a re-analysis of the deposited data

Results flagged for a closer look

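Arid1b in library 2 of p16 WT CTL was 39.9 TPM, far from the other 3 libraries of its group at 47.7 to 48.2 TPM. It was the only such value in 40 groups of 4 libraries looked at (10 subunits in 4 groups), and chance, at about 1 in 20 groups, would give about 2 in 40, so that 1 value is no more than chance gives. Library 2 is among the 3 libraries low in nuclear RNA, whose part in this value was not tested.

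The running effect on Dpf3 was 0.42 on the log2 scale in knockout and 0.02 in wild-type mice, and the difference of 0.40 had an unadjusted p under 0.05 in the interaction test but did not pass adjustment (limma adjusted p = 0.797). The study selected Dpf3 on these same samples for such an interaction, so the value is a description and no independent evidence. All 4 p16 KO RUN libraries were above all p16 KO CTL libraries.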

How the results depend on the processing

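Over the alternatives, the count of subunits with an unadjusted p under 0.05 was 5 in Set A with TPM as deposited (Smarca4 and Actl6a in addition), 1 in Set D without libraries 2, 6 and 7 (Smarca2), and 2 for the interaction with no filter (Smarca4 in addition). With each library left out in turn it ran for Set A from 3 to 4, for Set B from 0 to 1, for Set C from 1 to 3, for Set D from 1 to 4, for Set E from 1 to 2, for the interaction from 1 to 2, for the averaged running effect from 4 to 6 and for the averaged genotype effect from 0 to 2. The share of all genes called moved too, from 11.7% to 27.4% for Set A, 3.22% to 17.5% for Set B, 3.07% to 5.88% for Set C, 6.53% to 11.2% for Set D, 2.81% to 6.05% for Set E, 3.57% to 13.7% for the interaction, 13.1% to 24.1% for the averaged running effect and 4.16% to 15.7% for the averaged genotype effect. Without libraries 2, 6 and 7 it was 8.49% in Set A and 11.2% in Set D, and with TPM as deposited 18.5% in Set A. TPM as deposited moved the median of all genes in Set A from 0.02 to 0.08. Of the named differences, those of Dpf3 in Sets A and E and the interaction, of Arid1a in Set A, of Dpf2 in Set C, of Smarca2 in Set D, and of Arid1a, Arid1b and Dpf3 for the averaged running effect kept their call under every alternative run. The adjusted limma p of Dpf3 in Set A ranged from 0.0445 to 0.474, that of Arid1a for the averaged running effect from 0.0347 to 0.344, and that of Arid1b for the same effect from 0.0380 to 0.414. Each passed 0.05 only without library 5, where the log2 fold changes were 0.47, 0.23 and 0.17. Calls were gained for Actl6a in Set A with TPM as deposited (0.30), FPKM (0.23), coverage (0.23) and the joint fit (0.23), and for Smarca4 in Set A with TPM as deposited (0.17). They were gained for Arid1a in Set C with the joint fit (0.16) and the nuclear RNA covariate (0.11), for Arid1b in Set C with no filter (0.11), and for Dpf2 (0.27) and Ss18l1 (0.13) in the averaged running effect with TPM as deposited. The averaged running effect of Smarca2 lost its call with TPM as deposited (-0.18). Arid1b in Set A lost its call with the nuclear RNA covariate (0.11). In Set D, Arid1b lost its call with TPM as deposited (0.14) and with no variance trend (0.13), Dpf2 with no filter (0.40) and with the nuclear RNA covariate (0.37), and Dpf3 from coverage (0.24). The cause was not tested.

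The following differences changed sign. Actl6a in Set C became -0.0037 with quantile normalization, -0.0236 without libraries 2, 6 and 7 and -0.0090 with the nuclear RNA covariate, and ran from -0.0548 to 0.0459 with each library left out. Without libraries 2, 6 and 7, Actl6b became -0.0414 in Set A, -0.0517 in Set C and -0.0465 for the averaged running effect. With the covariate its values were -0.0441 (Set A), 0.0184 (Set B), -0.0197 (Set C), -0.1004 for the interaction and -0.0379 for the averaged running effect. With each library left out Actl6b ran from -0.0103 to 0.1048 in Set A, from -0.0517 to 0.1062 in Set C, from -0.1410 to 0.0169 in Set D and from -0.0535 to 0.1094 for the interaction. Dpf3 in Set C became -0.0350 from coverage and ran from -0.0388 to 0.1113 with each library left out. From coverage per base the mean log2 ratio over 16 libraries was 0.29 for Smarca2/Smarca4 and -2.19 for Dpf3/Dpf2, each further from the TPM value than 1 SD. With no read counts, the depth behind a value cannot be judged, although all 10 subunits were above 13 TPM in every library.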
